A study of Collinsia rattanii with 18 samples.

Results

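Genes whose transcripts rose from the first to the last bud stage in both *C. linearis* and *C. rattanii* are described here. A gene was a member when, in each species, its lowest B3 library was at least 2 times its highest B1 library and its mean at B3 was at least 1 CPM, where CPM is the read count scaled to a library of 1000000 reads after adjustment by the trimmed mean of M-values (TMM). The genes were thus chosen by their B1 and B3 values in both species, and 63 of the 46127 genes in the count table met the rule. For that reason the rise itself is a description of how the genes were picked, and the B2 libraries are the only ones that the rule did not use.

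*C. linearis* is a predominantly outcrossing annual and *C. rattanii* is its highly selfing sister species. The study sampled whole pre-anthesis floral buds, 2 to 4 for each plant and stage, from 3 plants of each species at an early (B1), a middle (B2) and a late (B3) bud stage set by organ size and colour, which gave 6 groups of 3 libraries. The plants of each species came from 2 populations, were germinated and grown to flowering in cultivation, with no treatment named; the labels used here do not say which plant came from which population. Reads of both species were aligned to the *C. rattanii* genome. The study focused on where the course of expression during bud growth differs between the sister species. It also looked for genes with a parallel course in both.

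Between an early bud and opening, petals, filaments and styles elongate by cell expansion, petals take up or lose pigment, pollen matures and anthers prepare to open. Transcripts that accumulate late in buds therefore often belong to mature petal, stamen, pollen or style cells, which are present in small numbers or not yet formed in young buds. In whole buds, a larger number of cells of one type and more RNA per cell cannot be told apart.

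The libraries held between 23831351 and 41451418 counted reads, with a median of 31489848. In *C. linearis*, B3 plant 2 and B2 plant 2 stood apart with TMM factors of 0.522 and 0.716, against 0.935 to 1.2 in the other 16 libraries. The top 50 genes by count held 22.8% and 15.6% of their reads, against 8.11% to 11.2% elsewhere. The 6 pollen wall genes that the study names, which it chose on these libraries, summed to 1398 and 3193 CPM in *C. linearis* B1 plants 2 and 3 and to between 17.7 and 43.4 CPM in every other library. Those 2 libraries are therefore unlike *C. linearis* B1 plant 1 (27.8 CPM), and counts without either of them are given where they differ. The files used here pair no gene with a name or position, so the 63 genes are given by identifier alone and no role is assigned to them.

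The 63 genes were 5.93% of the 1062 genes that met the rule in *C. linearis* and 21.5% of the 293 that met it in *C. rattanii*. Among the 19545 genes with a mean of at least 1 CPM at B3 in both species, 4.72% met the rule in *C. linearis*, 0.952% met it in *C. rattanii*, and 63 (0.322%) met it in both. Of the *C. linearis* risers, 1 (0.0942%) met the mirrored rule for a fall in *C. rattanii*, and 3 of the *C. rattanii* risers (1.02%) met it in *C. linearis*. The share of all genes that met the fall rule in a single species is not given here, so how rare this was cannot be judged. By the mirrored rule, 84 genes fell in both species. Just inside the 2-fold limit lay RCORA176223, with ratios of lowest B3 to highest B1 library of 7.0 in *C. linearis* against 2.01 in *C. rattanii*, and RCORA118916, with 3.22 in *C. linearis* against 2.03 in *C. rattanii*. Just outside it lay RCORA210046, with 4.83 in *C. linearis* against 1.98 in *C. rattanii*, and RCORA201106, with 2.04 in *C. linearis* against 1.98 in *C. rattanii*. The rule also admitted RCORA16255 and RCORA208569, which had no reads in *C. linearis* B3 plant 2 or in any *C. linearis* B1 library, because 0 is at least 2 times 0. Without them there were 61 genes. On plain library totals the rule gave 46 genes. In *C. linearis* B3 plant 2, with its TMM factor of 0.522, the members with reads at least 2-fold above the highest B1 library numbered 61 with TMM and 46 on plain totals. On plain totals they numbered 63 in *C. linearis* B3 plants 1 and 3, and 62, 60 and 62 in *C. rattanii* B3 plants 1, 2 and 3.

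The genes were scarce in young buds and moderately abundant in old ones. Their median level in *C. linearis* was 0.656 CPM at B1, 5.28 CPM at B2 and 33.4 CPM at B3. In *C. rattanii* it was 2.43 CPM at B1, 15.2 CPM at B2 and 28.8 CPM at B3. All genes tested had medians between 9.0 and 9.88 CPM in the 6 groups, so the members lay below the typical gene at B1 in both species and above it at B3. Reads were few at B1 for part of the set: 12 genes had under 10 reads over the *C. linearis* B1 libraries and 6 over the *C. rattanii* B1 libraries, while 46 genes had a read in all 18 libraries. Levels are per library and not per transcript length.

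The rise was the larger one in *C. linearis* for 54 of 63 genes. The ratio of the B3 mean to the B1 mean, with B1 means set to no less than 3 reads over the group, had a median of 36.2 in *C. linearis* (interquartile range 14.5 to 162) against 7.89 in *C. rattanii* (4.73 to 17.9). The B1 mean was raised to that floor for 8 genes in *C. linearis* against 2 in *C. rattanii*, so those ratios are lower bounds. A ratio above 10 was found for 54 genes in *C. linearis*, for 22 in *C. rattanii* and for 21 in both. Across the 63 genes, the fitted log2 rise in one species went with that in the other (Pearson's r = 0.64, Spearman's rho = 0.61), where genes share libraries and are not replicates. These values are descriptions, since the B1 and B3 libraries chose the genes.

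**Figure D1:**
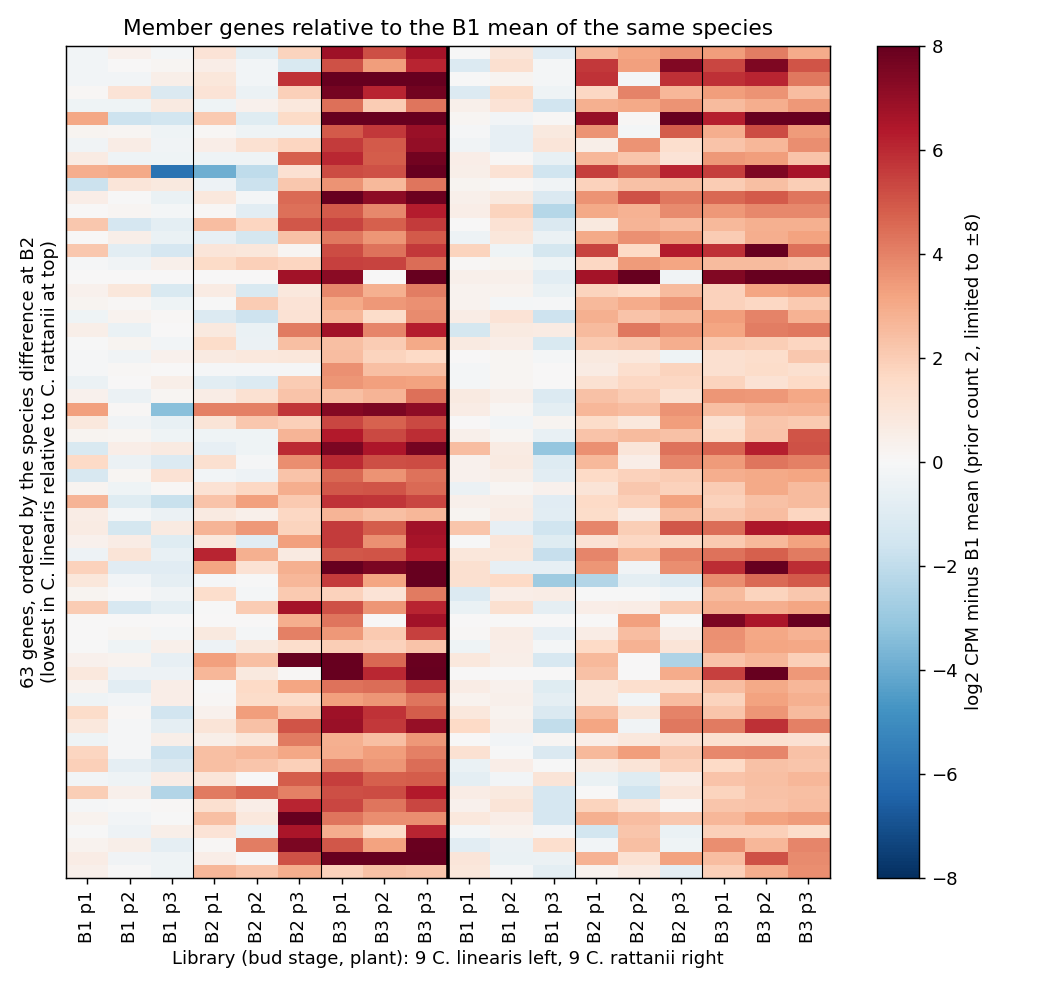
Each row is 1 of the 63 genes and each column 1 of the 18 libraries (9 of *C. linearis* left of the thick line, 9 of *C. rattanii* right of it, ordered by bud stage and plant, p). Colour gives log2 CPM minus the B1 mean of the same species, limited to ±8. The B3 columns are red in both species, apart from white cells of 2 genes in *C. linearis* plant 2, and among the *C. linearis* B2 columns plant 3 is the darkest.

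As a description of the contrast that chose the genes, edgeR called a rise between B1 and B3 at a false discovery rate (FDR) of 0.01 for 33 of 63 members in *C. linearis*, where 2% of all genes tested were called. In *C. rattanii* edgeR called 0 members, where 0.00358% of all genes were called. At an unadjusted edgeR p under 0.05 the members numbered 63 in *C. linearis* (14% of all genes) against 57 in *C. rattanii* (3.75%), and DESeq2 at an FDR of 0.01 called 60 of 61 members tested in *C. linearis* (7.35% of all genes) against 30 of 61 in *C. rattanii* (0.422%). At an FDR of 0.05 edgeR called 58 in *C. linearis* (7.02% of all genes) against 2 in *C. rattanii* (0.0287%). With the plant as a block and an FDR of 0.01, edgeR called 14 members in *C. linearis* (0.573% of all genes) and 0 in the other species, where it called 0 of all genes. The *C. linearis* count was 4 without B1 plant 2 (0.0489% of all genes) and 7 without B1 plant 3 (0.279%). It was 13, 18 and 16 without B3 plant 1, 2 or 3 (0.562%, 0.644% and 1.88% of all genes). Without every library of *C. linearis* plant 1, 2 or 3 it was 13, 0 and 20 (0.663%, 0 and 0.705%), and without those of *C. rattanii* plant 1 or 2 it was 9 and 13 (0.341% and 0.369%).

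Members with a mean of at least 1 CPM at B1 in both species were ranked by the smaller of their 2 ratios of lowest B3 to highest B1 library, 1 for each species, and RCORA212574, RCORA42244 and RCORA182085 came first. RCORA212574 had 42.9, 9.92 and 6.47 CPM at B1, 34.1, 13.2 and 187 CPM at B2 and 880.0, 501 and 531 CPM at B3 in *C. linearis* plants 1, 2 and 3. In *C. rattanii* it had 31.7, 43.0 and 12.2 CPM at B1, 155, 37.5 and 385 CPM at B2 and 267, 492 and 421 CPM at B3. At B2 plant 3 was the highest plant in both species, and in *C. linearis* plants 1 and 2 were still within the range of B1. The lowest B3 library was 11.7 times the highest B1 library in *C. linearis*, against 6.22 times in *C. rattanii*.

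RCORA42244 had nearly equal ratios in the species, 5.56 in *C. linearis* against 5.51 in *C. rattanii*. It had 0.589, 1.71 and 3.55 CPM at B1, 1.31, 1.18 and 7.63 CPM at B2 and 38.2, 19.7 and 32.8 CPM at B3 in *C. linearis*. The *C. rattanii* plants had 2.7, 2.93 and 1.16 CPM at B1, 6.44, 7.62 and 8.69 CPM at B2 and 16.1, 17.3 and 18.8 CPM at B3. The 3 stages did not overlap in *C. rattanii*, whereas in *C. linearis* B2 plants 1 and 2 lay within the B1 range and only plant 3 was above it. RCORA182085 had 4.93, 2.51 and 1.59 CPM at B1, 5.66, 13.9 and 91.9 CPM at B2 and 326, 137 and 342 CPM at B3 in *C. linearis*. Values in *C. rattanii* were 11.7, 4.96 and 0.908 CPM at B1, 34.4, 3.04 and 71.3 CPM at B2 and 69.8, 222 and 61.7 CPM at B3. Plant 2 was the lowest *C. rattanii* plant at B2 and the highest at B3, so the order of plants was not kept between stages.

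The most abundant members, by the mean over 18 libraries, were RCORA62704 (269 CPM), RCORA212574 (225 CPM) and RCORA17077 (211 CPM). RCORA62704 had 30.3, 20.5 and 28.1 CPM at B1, 57.8, 81.2 and 192 CPM at B2 and 822, 865 and 615 CPM at B3 in *C. linearis*. The *C. rattanii* libraries held 48.7, 74.5 and 87.7 CPM at B1, 139, 308 and 249 CPM at B2 and 279.8, 554 and 387 CPM at B3. It was thus ordered by stage without overlap in *C. linearis*, while B2 and B3 overlapped in *C. rattanii*. RCORA17077 changed least of the 3, with 98.1, 58.1 and 47.2 CPM at B1, 104, 83.9 and 199 CPM at B2 and 417, 348 and 400.3 CPM at B3 in *C. linearis*. For *C. rattanii* the levels were 92.4, 118 and 44.2 CPM at B1, 221, 117 and 415 CPM at B2 and 342, 439 and 253 CPM at B3. Its B2 range reached into both neighbouring stages in *C. rattanii* and into that of B1 in *C. linearis*.

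**Figure D2:**
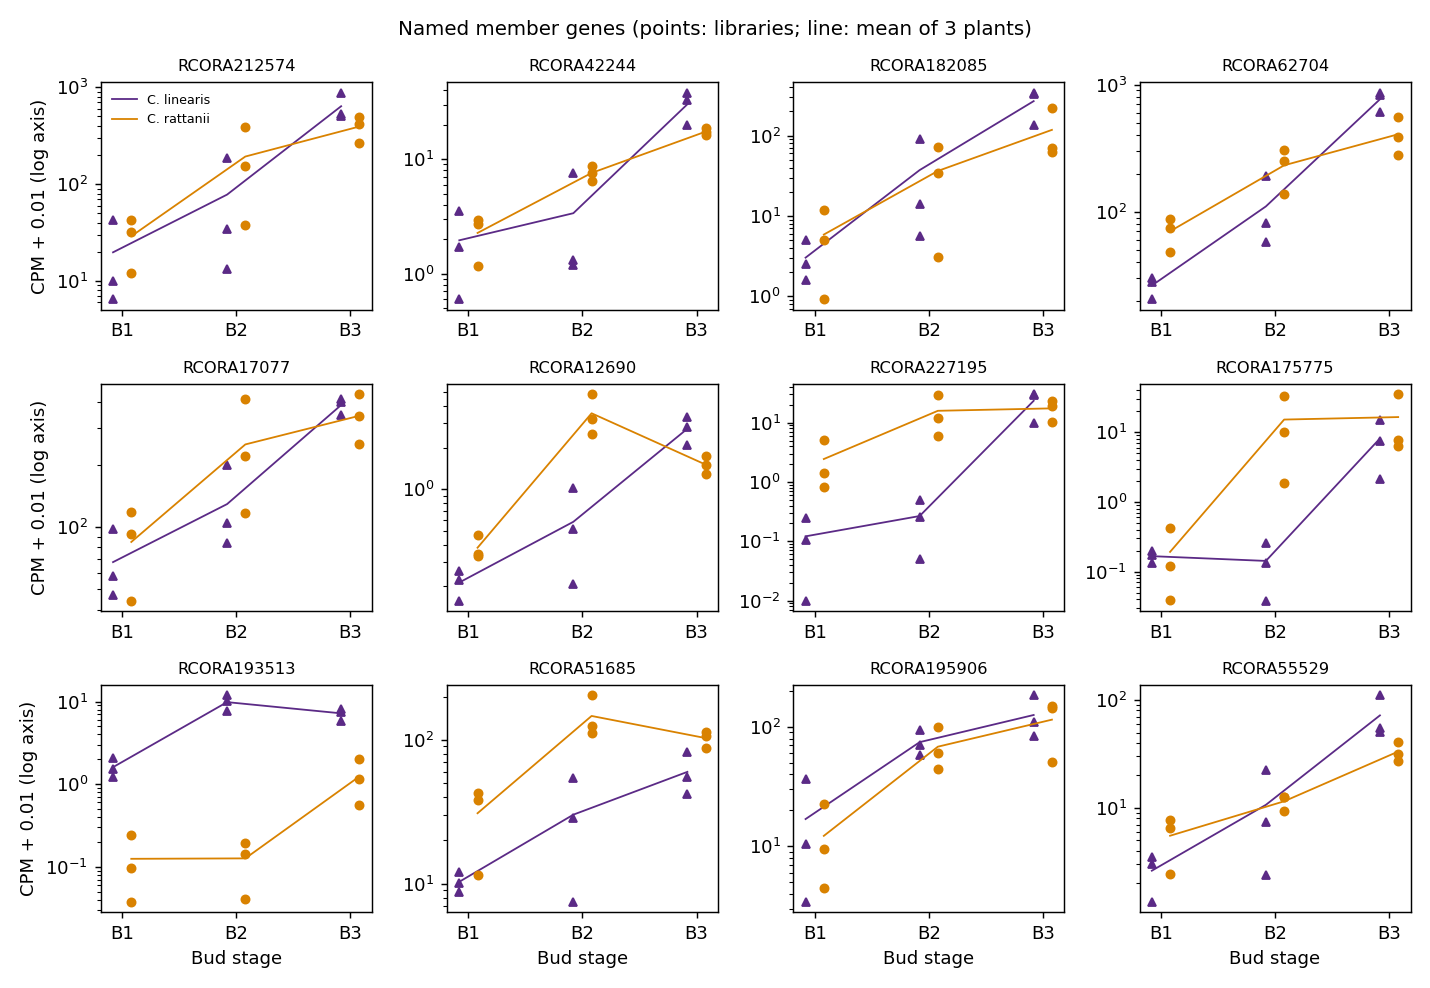
Each panel shows 1 named gene by bud stage, with the 3 *C. linearis* libraries of a stage as triangles and the 3 *C. rattanii* libraries as circles. The vertical axis is CPM plus a small constant on a log scale, and lines join the means of 3 plants. RCORA193513 is the panel in which the *C. linearis* libraries lie above every *C. rattanii* library at each stage.

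At B2, which the rule did not use, the genes were on average between their B1 and B3 levels in both species. All 3 B2 libraries lay above the highest B1 library for 15 members in *C. linearis* (7.16% of all genes tested) and for 35 members in *C. rattanii* (6.3% of all genes), and for 8 members in both species (0.695% of all genes). The B2 mean lay between a lower B1 mean and a higher B3 mean for 52 members in *C. linearis* (22.1% of all genes) against 49 in *C. rattanii* (16.5%), and for 38 in both (3.88%). A full order, with all 3 B2 libraries above every B1 and below every B3 library, held for 10 members in *C. linearis* (1.18% of all genes) against 7 in *C. rattanii* (0.229%). Since the rule fixed B1 below B3, part of these shares follows from it. The *C. linearis* count was 20 without B1 plant 1, 16 without B2 plant 1 and 17 without B2 plant 2, and it was 6 on plain library totals. The *C. rattanii* count was 11, 12 and 13 without B2 plant 1, 2 and 3 and 14 without B3 plant 1.

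The *C. linearis* plants differed from each other at B2. Of the 63 genes, 13, 14 and 47 were at least 2-fold above the highest B1 library in *C. linearis* B2 plants 1, 2 and 3, and 40, 35 and 42 were so in *C. rattanii* plants 1, 2 and 3. Among all genes tested that share was 4.65% to 9.31% in *C. linearis* and 2.48% to 4.57% in *C. rattanii*. Plant 3 thus matched the *C. rattanii* plants in this count, while plants 1 and 2 remained near B1. The median log2 level over the B1 mean also set *C. linearis* plant 3 apart, with 0.75, 0.34 and 2.41 in plants 1, 2 and 3. In *C. rattanii* plants 1, 2 and 3 this median was 2.06, 1.89 and 2.45. Over all genes tested this median lay between -0.11 and 0.03 in the 6 libraries. By B3 the members' median was 5.09, 3.93 and 5.59 in *C. linearis* and 2.60, 3.12 and 3.12 in *C. rattanii*. The rise over B1 was thus larger in each of the 3 *C. linearis* plants than in the *C. rattanii* plants. The levels themselves overlapped at B3. The members' median log2 CPM was 4.89, 3.79 and 5.29 in *C. linearis* plants 1, 2 and 3 and 4.28, 5.11 and 4.53 in *C. rattanii*.

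Summed over the 63 genes, *C. linearis* B2 buds held 535, 631 and 2026 CPM in plants 1, 2 and 3, between 181 to 459 CPM at B1 and 4885 to 10159 CPM at B3. *C. rattanii* buds held 398 to 788 CPM at B1, 1730 to 3017 CPM at B2 and 3232 to 5142 CPM at B3. Plant 3 was the highest of the *C. linearis* B2 plants for 46 of 63 genes (73.0%, against 38.3% of all genes tested). In *C. rattanii* plant 3 was the highest for 36 genes (57.1%, against 38.9%). The median SD between plants of log2 CPM was 0.54 at B1, 1.5 at B2 and 0.72 at B3 in *C. linearis*, and 0.87 at B1, 0.84 at B2 and 0.49 at B3 in *C. rattanii*. Over all genes it was 0.41, 0.50 and 0.45 at B1, B2 and B3 in *C. linearis* and 0.34, 0.43 and 0.29 in *C. rattanii*, so the members varied more than the typical gene in each group and most at *C. linearis* B2. Plant 1 was about as low as plant 2 in these genes at B2, with a TMM factor of 0.980 against 0.716, and the pollen wall genes summed to between 20.8 and 35.0 CPM in the *C. linearis* B2 libraries.

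**Figure D3:**
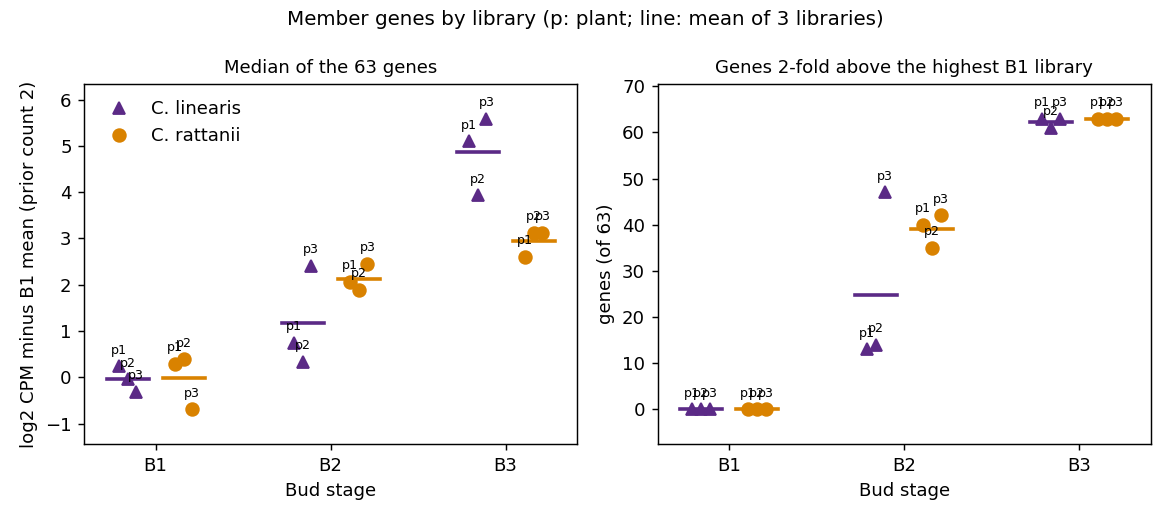
Left, the median over the 63 genes of log2 CPM minus the B1 mean of the same species, by library; right, the number of the 63 genes at least 2-fold above the highest B1 library. Triangles are *C. linearis*, circles *C. rattanii*, p marks the plant and bars give the mean of 3 libraries. At B2 *C. linearis* plant 3 (2.41 and 47 genes) lies with the *C. rattanii* plants, and plants 1 and 2 lie below them.

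Split into steps, the fitted median log2 change of the members in *C. linearis* was 1.71 from B1 to B2 and 2.91 from B2 to B3. In *C. rattanii* it was 2.24 from B1 to B2 and 0.91 from B2 to B3. All genes tested had medians of 0.01 and 0.01 in *C. linearis* and of 0.02 and -0.06 in *C. rattanii* for the early and late step. The share of the fitted log2 rise reached at B2 had a median of 0.393 in *C. linearis* (interquartile range 0.204 to 0.576) against 0.723 in *C. rattanii* (0.511 to 0.930). At least 50% of the rise was reached at B2 by 20 genes (31.7%) in *C. linearis* and by 47 (74.6%) in *C. rattanii*. Counted by gene, 35 of 63 rose mostly late in *C. linearis* and mostly early in *C. rattanii*, 12 mostly early in both, 8 mostly late in both, and 8 mostly early in *C. linearis* and mostly late in *C. rattanii*. These shares were not taken over all genes that met the rule in a species, so the timing is not shown to be particular to the members. The difference in timing was not tested, because it uses the B1 and B3 libraries, and its order depended on the plants used. Without every library of *C. linearis* plant 1, the median early step in *C. linearis* was 2.52, above its late step of 2.47 and above the early step of 2.25 in *C. rattanii*. Without every library of *C. rattanii* plant 3, the early step was 1.69 in *C. linearis* against 1.60 in *C. rattanii*. Without *C. linearis* B2 plant 3 the early step in *C. linearis* was 0.50, the late step 4.20 and the count of genes past 50% at B2 was 5, and without B2 plant 1 or 2 that count was 24 or 23.

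**Figure D4:**
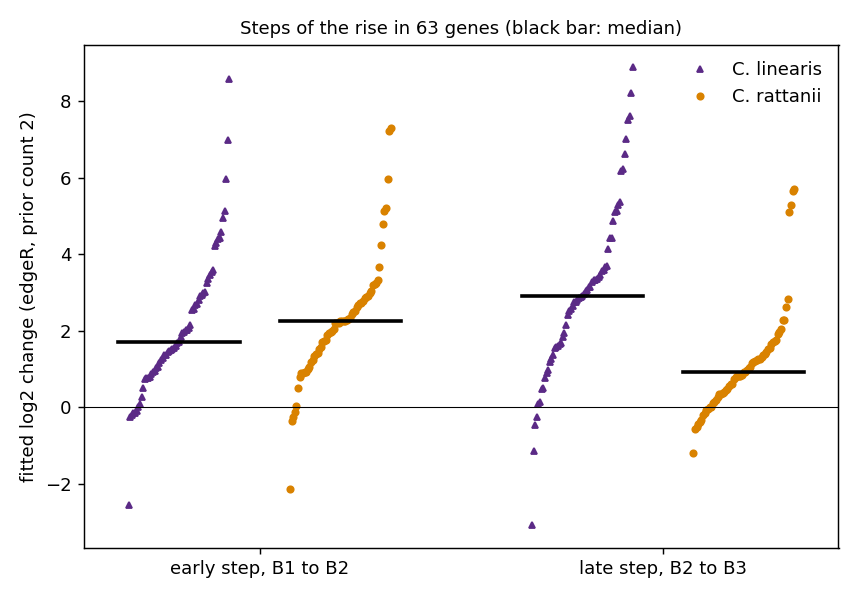
Each point is 1 of the 63 genes, ordered by value within a column, and the vertical axis is the fitted log2 change from edgeR for the early step (B1 to B2, left) and the late step (B2 to B3, right). Triangles are *C. linearis*, circles *C. rattanii*, and black bars are medians, 1.71 and 2.24 in the early step and 2.91 and 0.91 in the late step.

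Timing was ranked only among members with a mean of at least 1 CPM at B1 in both species. Early genes were ranked by the smaller of the species' shares and late genes by the larger. Of these members, RCORA195906 and RCORA51685 had the most of their rise behind them at B2, and RCORA209496 and RCORA55529 the least. RCORA195906 reached a share of 0.739 in *C. linearis* against 0.767 in *C. rattanii*. It had 36.8, 10.4 and 3.40 CPM at B1, 58.7, 70.8 and 94.1 CPM at B2 and 83.9, 110.0 and 184 CPM at B3 in *C. linearis*. In *C. rattanii* it had 22.7, 9.45 and 4.46 CPM at B1, 60.3, 99.99 and 44.6 CPM at B2 and 145, 149 and 50.7 CPM at B3. Every B2 library was above every B1 library in both species, and B2 overlapped B3 in both. In RCORA55529, with shares of 0.422 in *C. linearis* against 0.408 in *C. rattanii*, the B3 libraries stood clear of B2. It had 3.01, 1.33 and 3.48 CPM at B1, 2.36, 7.34 and 22.3 CPM at B2 and 50.7, 55.0 and 110.5 CPM at B3 in *C. linearis*. The *C. rattanii* plants had 7.65, 6.43 and 2.45 CPM at B1, 9.26, 12.5 and 12.7 CPM at B2 and 27.4, 40.8 and 31.6 CPM at B3, with no overlap between stages.

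The species difference at B2 compares libraries that the rule did not use, but the fit takes its estimate of the spread from all 18 libraries, the B1 and B3 ones included. At an FDR of 0.01 in edgeR's quasi-likelihood test, 13 of 63 members were lower in *C. linearis* (20.6%, against 10.9% of all genes tested) and 1 was higher (1.59%, against 8.85%). Fitted on the 6 B2 libraries alone, none of which the rule used, edgeR called 6 of 60 members tested lower (10%, against 5.32% of all genes). In that fit 1 member was called higher, and 1304 of the 25292 genes tested. The fitted log2 difference, *C. linearis* minus *C. rattanii*, had a median of -1.30 over the members, with 51 below 0 and 12 above, and of -0.05 over all genes tested. Every *C. linearis* B2 library lay below every *C. rattanii* B2 library for 24 members (23.7% of all genes) and above for 1 (23.3% of all genes). For the 13 genes called lower the differences ran from -2.12 to -6.65, and in 12 of them the species did not overlap. The matching share of all genes called lower was not taken, so that count is not read as a trait of the members. At B3, as a description, 5 of these 13 genes were lower in *C. linearis* and 8 were higher. The 49 members not past the threshold ranged from -4.58 to 3.18, 38 of them below 0, with a median standard error of 0.997. At an FDR of 0.01 in this fit their differences could not be told from 0, though some of them passed at an FDR of 0.05. The standard error varied by gene, for example 0.428 in RCORA62704 and 2.19 in RCORA16255, so no single size marks what could be told from 0.

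The count of members lower in *C. linearis* varied with the libraries used, and the share of members stayed above the share of all genes in each of the 33 settings run. It was 29 without *C. linearis* B2 plant 3 (46% of members, against 9.51% of all genes), where the median difference was -2.61. It was 10 or 11 without B1 plant 2 or 3 of *C. linearis*, the libraries with high pollen wall genes (9.29% and 10.4% of all genes). It was 8 without B2 plant 1 or plant 2 of *C. linearis* (7.22% and 5.82% of all genes). Without every library of *C. linearis* plant 1, 2 or 3 it was 8, 7 and 25 (7.2%, 5.07% and 9.5% of all genes). It was 8 without every library of *C. rattanii* plant 1, 2 or 3 (4.7%, 5.02% and 7.86% of all genes). DESeq2 called 23 members lower (14.7% of all genes) and 2 higher (4633 of 29154 genes tested). At an FDR of 0.05 edgeR called 24 members lower (19.6% of all genes) and 2 higher (18.2%). All reads were counted on *C. rattanii* gene models, and whether this affected the difference at B2 was not tested. The fitted median difference of the same 63 genes was -1.37 at B1 and 0.26 at B3, with 39 genes above 0 at B3. Both values describe libraries the rule used.

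**Figure D5:**
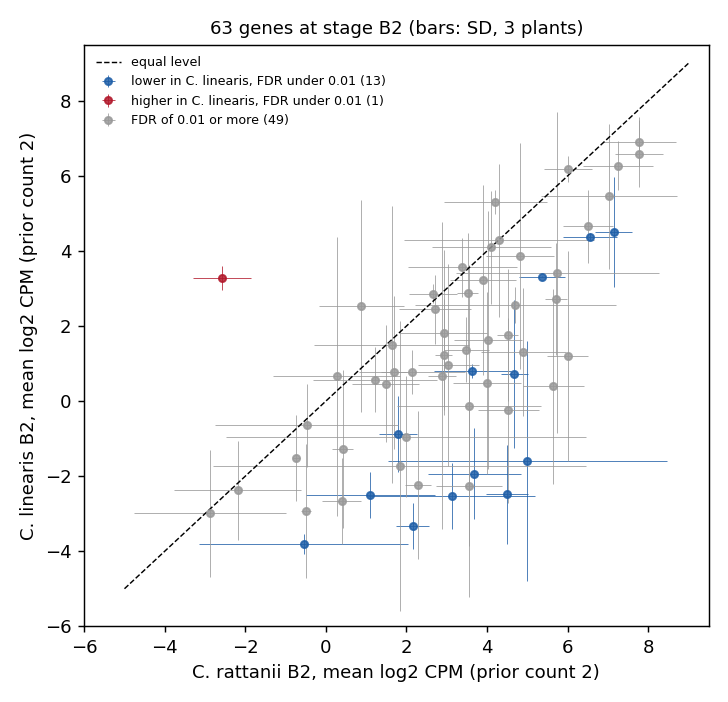
Each point is 1 of the 63 genes at stage B2, with the mean log2 CPM of *C. rattanii* on the horizontal axis and of *C. linearis* on the vertical axis, and bars of 1 SD over 3 plants. Below the dashed line of equal levels lie 13 genes lower in *C. linearis* at an FDR under 0.01 (blue), and the 1 gene higher in *C. linearis* (red) lies above it; the other 49 are grey.

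The fitted late step was below 0 for 10 of 63 members in *C. rattanii* and for 4 in *C. linearis*. Over all genes tested that step was above 0 for 43.6% in *C. rattanii* and 50.7% in *C. linearis*. RCORA12690, singled out after its values were seen, is one of the members that did not peak at B3 in both species. It had 0.248, 0.213 and 0.148 CPM at B1, 0.197, 1.01 and 0.510 CPM at B2 and 2.09, 2.80 and 3.29 CPM at B3 in *C. linearis*. Values in *C. rattanii* were 0.460, 0.319 and 0.330 CPM at B1, 2.49, 3.23 and 4.86 CPM at B2 and 1.48, 1.27 and 1.74 CPM at B3. It peaked at B2 in *C. rattanii*, where every B2 library exceeded every B3 library, and at B3 in *C. linearis*. At B2 the log2 difference was -2.51 (SE 0.48, edgeR FDR 0.0015), lower in *C. linearis* without overlap. The FDR was 0.0329 with the 6 B2 libraries alone, and 0.01097, 0.01037, 0.0119 and 0.01385 without all libraries of *C. linearis* plant 3 or of *C. rattanii* plant 1, 2 or 3.

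RCORA227195 had 0.0931, 0.240 and 0 CPM at B1, 0.246, 0.0405 and 0.482 CPM at B2 and 29.7, 10.01 and 30.4 CPM at B3 in *C. linearis*. The *C. rattanii* libraries held 0.805, 5.04 and 1.43 CPM at B1, 5.91, 29.7 and 12 CPM at B2 and 19.0, 23.0 and 10.3 CPM at B3. It was near its B1 level at B2 in *C. linearis* and at about its B3 level in *C. rattanii*. The log2 difference at B2 was -5.60 (SE 1.00, edgeR FDR 0.000891), without overlap. RCORA175775 had a like pattern, 0.124, 0.160 and 0.185 CPM at B1, 0.246, 0.122 and 0.0284 CPM at B2 (10, 3 and 1 reads) and 7.41, 2.13 and 14.8 CPM at B3 in *C. linearis*. For *C. rattanii* the levels were 0.0287, 0.406 and 0.110 CPM at B1, 10.1, 1.88 and 33.6 CPM at B2 and 7.80, 35.3 and 6.32 CPM at B3. It had the largest fitted difference among called members with a read in every B2 library, -6.26 (SE 1.21, edgeR FDR 0.00151). That call was lost with the 6 B2 libraries alone (FDR 0.01195), in limma-voom (FDR 0.01309), with the plant as a block in limma-voom (FDR 0.01358) and without all libraries of *C. linearis* plant 2 (FDR 0.0136).

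RCORA193513 was the member that went the other way, with 2.05, 1.52 and 1.22 CPM at B1, 10.02, 7.62 and 11.9 CPM at B2 and 5.86, 8.22 and 7.51 CPM at B3 in *C. linearis*. In *C. rattanii* it had 0.230, 0.0869 and 0.0275 CPM at B1, 0.133, 0.185 and 0.0309 CPM at B2 (4, 7 and 1 reads) and 0.544, 1.15 and 1.99 CPM at B3. The share of the log2 rise reached at B2 was 1.21 in *C. linearis* against 0.00799 in *C. rattanii*, and each *C. linearis* library was above each *C. rattanii* library of the same stage. The log2 difference at B2 was 5.77 (SE 0.67, edgeR FDR 2.45e-05), and it lay between 5.49 and 6.11 when libraries or plants were left out.

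RCORA51685 and RCORA209496 were also lower in *C. linearis* at B2, and were more abundant. RCORA51685 had 10.1, 12.1 and 8.73 CPM at B1, 28.6, 7.46 and 54.4 CPM at B2 and 54.9, 41.8 and 82.8 CPM at B3 in *C. linearis*. The *C. rattanii* plants had 43.0, 38.1 and 11.5 CPM at B1, 112, 124 and 204 CPM at B2 and 114, 107 and 87.5 CPM at B3. The *C. linearis* B2 plants spread widely and still did not reach the *C. rattanii* ones. Its log2 difference at B2 was -2.28 (SE 0.59, edgeR FDR 0.00835), and the FDR was above 0.01 in 18 of the 24 settings that left out a library or plant, and was 0.0496 with the 6 B2 libraries alone. RCORA209496 had 11.2, 9.52 and 15.1 CPM at B1, 19.3, 21.3 and 22.0 CPM at B2 and 66.2, 41.2 and 34.9 CPM at B3 in *C. linearis*. Values in *C. rattanii* were 70.6, 77.4 and 61.0 CPM at B1, 119, 126 and 54.6 CPM at B2 and 170.2, 184 and 311 CPM at B3. Its share of the rise at B2 was 0.404 in *C. linearis*, against 0.309 in its sister species. The gene was lower in every *C. linearis* library than in every *C. rattanii* library of the same stage, with a log2 difference at B2 of -2.25 (SE 0.34, edgeR FDR 0.000266). The other named members did not pass the threshold at B2, with edgeR FDR values between 0.0201 and 0.983.

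Single libraries set the level of some members, which were noted after their values were seen. RCORA227777 had 28.7, 31.7 and 0 CPM at B1, 0.197, 0.892 and 8.96 CPM at B2 and 144, 134 and 2744 CPM at B3 in *C. linearis*, so B3 plant 3 held most of its reads and B2 lay below 2 of the B1 libraries. The *C. rattanii* libraries held 1.55, 2.58 and 0.330 CPM at B1, 54.6, 28.4 and 80.1 CPM at B2 and 55.0, 208 and 117 CPM at B3, which was a plain rise. RCORA16255 had 0 CPM in *C. linearis* at B1, 0, 0 and 6.52 CPM at B2 and 9.34, 0 and 108 CPM at B3. For *C. rattanii* the levels were 0.0862, 0.0869 and 0 CPM at B1, 11.2, 42.1 and 0.0309 CPM at B2 and 19.3, 34.4 and 47.1 CPM at B3. RCORA208569 had 0 CPM at B1 in both species, 0, 0 and 0.425 CPM at B2 and 1.19, 0 and 6.55 CPM at B3 in *C. linearis*, and 0, 0.556 and 0 CPM at B2 and 11.8, 5.85 and 20.8 CPM at B3 in *C. rattanii*. These last 2 genes had no read in *C. linearis* B3 plant 2, the library with the lowest TMM factor.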

How the data were processed

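RNA-seq libraries came from floral buds of 3 plants for each of 2 species at 3 stages. The authors checked reads with FastQC 0.11.9, aligned those of each species to the *C. rattanii* assembly with STAR and summarized them on gene models with featureCounts. The deposited table holds raw counts for each gene, not normalized or filtered. How strand and multi-mapping reads were handled is not stated in the labels or the paper, so genes that overlap or have near-identical copies are uncertain. The table held 2 further library columns that match no single sample, which were not used. Species, stage and plant came from the sample labels, and libraries of a group differed by more than sampling noise (chi-square for each degree of freedom 49.5 to 609 over 18 pairs).

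Library sizes were scaled by TMM over all genes, and CPM was computed from them. Of the table's genes, 27913 passed filterByExpr, all 63 members among them. Means of the 6 groups were fitted by edgeR 4.0.16 (robust quasi-likelihood, prior count 2) in R 4.3.3, with Benjamini-Hochberg adjustment over all genes tested. The threshold of 0.01 and the model without the plant follow the study. Alternatives used DESeq2 1.42.0 and limma 3.58.1, and the procedure was checked on simulated data. The rule also excluded 4 named genes, none of which met it in both species. Same-numbered libraries of a species come from the same plant, per the labels. The deviations of these 18 pairs from group means had correlations of -0.449 to 0.638 (median -0.05). For the 36 pairs of different plants of a species at different stages they were -0.622 to 0.485 (median 0.015). Named genes were the 3 with the largest ratio of lowest B3 to highest B1 library, taking the smaller of the species' ratios, the 3 most abundant, those with the largest called B2 difference in each direction, those nearest the limit of the rule, and the 2 earliest and 2 latest to rise; ratio and timing were ranked among genes of at least 1 CPM at B1. RCORA12690 was added after its values were seen. Process labels that the study gives only inside pictures were not a rule for naming genes, though genes with such labels can be among those named. The members and lists were chosen with earlier results of these data known. Gene sequences and positions were not analysed here. Counts limit precision most for genes near 0 at B1.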

Additional observations from a re-analysis of the deposited data

How the results depend on the processing

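No single value changed sign in any setting run, but the order of the early and late steps did change. The number of member genes was 113 at a fold of 1.5, 31 at a fold of 3, 253 without the minimum level at B3, 46 on plain library totals (all 46 among the 63), 61 without genes at 0 in a B3 library, and 65 to 92 with a library left out; without every library of *C. rattanii* plant 1 or 3 it was 115 or 99. At an FDR of 0.05, 24 members were lower and 2 higher in *C. linearis* at B2, and 58 in *C. linearis* and 2 in *C. rattanii* passed from B1 to B3; DESeq2 gave 23, 2, 60 and 30. With the 6 B2 libraries alone 6 members were lower. Over the 33 settings run, 10% to 46% of members were called lower at B2, against 4.7% to 19.6% of all genes tested. The plant as a replicate block gave 14 members from B1 to B3 in *C. linearis* and, as a random effect in limma-voom, 18 lower members at B2, as many as without the block, and it changed no other count. On plain totals 6 members had the full stage order in *C. linearis*. The median of all genes then shifted by -0.45 from B1 to B3 in *C. linearis* and by -0.30 between species at B2. The members' median differences in mean log2 CPM for these comparisons were 4.62 and -2.33, against 5.07 and -2.08 with TMM. The median difference fitted by edgeR at B2 was -1.30, so its size depended on the measure. With 1 library left out, the members called lower at B2 numbered 8 to 29 and higher 1, and those called from B1 to B3 numbered 4 to 44 in *C. linearis* and 0 to 1 in *C. rattanii* (1 without *C. rattanii* B2 plant 1). The median difference at B2 ran from -2.61 to -0.80. The early step ran from 0.50 to 2.24 and the late step from 2.58 to 4.20 in *C. linearis*, and from 1.96 to 2.36 and from 0.68 to 1.03 in *C. rattanii*. The full stage order held for 10 to 20 members in *C. linearis* and 7 to 14 in *C. rattanii*. Without every library of *C. linearis* plant 1, 2 or 3, the members lower at B2 numbered 8, 7 and 25 and those called from B1 to B3 in *C. linearis* 13, 0 and 20; without *C. rattanii* plant 1, 2 or 3 the members lower numbered 8, 8 and 8, and those called from B1 to B3 were 9 without plant 1 and 13 without plant 2. Without *C. linearis* plant 3 the median difference was -2.51 and the early step 0.70. Without *C. linearis* plant 1 the early step in *C. linearis* was 2.52 and the late step 2.47, with an early step of 2.25 in *C. rattanii*, and without *C. rattanii* plant 3 the early step was 1.69 in *C. linearis* against 1.60 in *C. rattanii*. With libraries or plants left out, the log2 differences at B2 ran from -3.11 to -2.04 for RCORA12690, -6.19 to -4.73 for RCORA227195, -6.81 to -4.89 for RCORA175775, -3.02 to -1.80 for RCORA51685 and -2.51 to -1.99 for RCORA209496. RCORA51685 also lost its call without a filter on low counts (edgeR FDR 0.01016) and with the B2 libraries alone (edgeR FDR 0.0496). Leaving out whole plants, and genes at 0 in a B3 library, was chosen after seeing the data. Causes were not tested. Where a group held few reads, as for 13 members with under 10 reads at B1 in a species, depth limits the size of the rise.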
